A study of Mus musculus with 12 samples.

Results

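Polyadenylated RNA from the lining of the oesophagus of C57BL/6 mice aged 6 weeks was counted gene by gene, and the comparison described here sets 3 Stat3KO libraries against 3 Control libraries, 6 of the 12 libraries in the study. Stat3KO mice carried ED/L2-Cre and floxed Stat3 on both alleles. Control mice carried the same floxed Stat3 alleles together with a Stop-silenced Ikk2ca allele (constitutively active IKKβ) at ROSA26, and no Cre. Both groups were therefore floxed for Stat3, and they differed in Cre and in the silent Ikk2ca allele as well as in Stat3 recombination, so the contributions of these cannot be told apart. ED/L2 is an Epstein-Barr virus promoter that drives Cre in squamous epithelium, so stromal, muscle and immune cells left in the tissue keep their Stat3. The other 6 libraries were Ikkβca+Stat3KO (ED/L2-Cre, Ikk2ca and floxed Stat3) and Ikkβca (ED/L2-Cre and Ikk2ca, with no floxed Stat3 on the label), 3 of each. Whether replicates stem from separate animals is not stated, so every p-value measures the spread between these libraries, and ± marks the standard error of a log2 fold change unless SD is stated.

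STAT3 is a latent transcription factor that JAK kinases phosphorylate beneath receptors of the IL-6 and IL-10 families, after which it binds DNA as a dimer and induces genes such as Socs3, its own feedback inhibitor. The oesophageal lining is a stratified squamous epithelium in which basal cells divide and their daughters move up through suprabasal layers that make keratins 4 and 13. Dividing cells copy DNA in an ordered way: the origin recognition complex with CDC6 and CDT1 loads the MCM helicase in G1, CDC45 and GINS activate it, and polymerases, the PCNA clamp and DNA ligase complete synthesis. E2F factors switch on most of these genes before S phase, whereas genes of G2 and mitosis are switched on later through other promoter elements, the CCAAT box and the cell cycle homology region (CHR).

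Stat3KO replicates 1 to 3 held 19826439, 21071267 and 19434987 counts, against 16349651, 17892556 and 30188363 in Control. The labelled tissue was borne out by its markers: basal keratin gene Krt5 stood at 10630 to 14050 CPM (counts scaled to a common library size with TMM factors) in Stat3KO and 9908 to 16090 CPM in Control. The suprabasal pair Krt4 and Krt13 took 6.01, 6.62 and 10.4% of all counts in Stat3KO and 5.23, 6.22 and 13.9% in Control. Replicate 3 of each group was thus the richest in suprabasal transcripts. Stat3KO replicate 3 also held gastric transcripts, and Control replicate 2 adipocyte transcripts, with values given beside the tissue markers.

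Stat3 itself (chromosome 11, 100885098 to 100939540, minus strand, mm10) had 139, 154 and 145 CPM in Stat3KO libraries, against 174, 157 and 179 CPM in Control. All Stat3KO values were the lower ones, by a small difference: -0.22 ± 0.15 on the log2 scale (edgeR adjusted p = 0.788). An exact two-sided permutation test gave p = 0.1, the smallest that 3 libraries against 3 allow. Where floxed exons are lost, the rest of a transcript can still be counted, and counts per gene do not separate the exons. Recombination of Stat3 was therefore not shown by these counts, and the reason for the small difference was not tested. Ikbkb, which encodes IKKβ, had 72.4, 68.3 and 61.2 CPM in Stat3KO and 82.6, 60.7 and 59.7 CPM in Control (-0.01 ± 0.14).

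No gene passed the test across all genes. The edgeR quasi-likelihood test called 0 of 14134 genes (0%) at a Benjamini-Hochberg adjusted p below 0.05, and the smallest adjusted p was 0.179. At an unadjusted edgeR p below 0.05 there were 544 genes higher in Stat3KO (3.85%) and 516 lower (3.65%). DESeq2 called 43 genes higher (0.305% of the 14097 given an adjusted p) and 63 lower (0.447%), and limma voom with sample quality weights called 39 higher (0.276%) and 73 lower (0.516%). These tools shared 74 calls, of which 46 were lower, and 32 of those 46 were DNA replication genes. All 3 Stat3KO libraries lay above all 3 Control libraries in 984 genes (6.96%) and below them in 862 (6.1%).

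DNA replication genes stood mostly below Control. Of 125 replication genes in 6 lists 124 were found in the files, all of which passed the count filter, and of these 113 were below 0 (52.7% of all genes were) and 11 above it (47.3% of all genes), with a median log2 fold change of -0.59 against -0.02 over all genes tested. Stat3KO lay below Control without overlap in 65 of the 124 (52.4%, against 6.1% of all genes), and above it in 1 (0.806%, against 6.96%). An unadjusted edgeR p below 0.05 was met by 73 in the lower direction (58.9%, against 3.65% of all genes) and by 2 in the higher. DESeq2 called 32 of them lower and none higher, voom called 49 lower and none higher, and edgeR called none, its smallest adjusted p being 0.179. Summed over the 124 genes, the level was 3746, 3667 and 3899 CPM in Stat3KO and 5336, 6035 and 4179 CPM in Control. The highest Stat3KO sum was close to the lowest Control sum, that of replicate 3.

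Promoters of replication genes are shown because they made up 32 of the 46 lower calls shared by DESeq2 and voom, and such genes are known E2F targets. In RefSeq promoters (GRCm38.p6), taken from 250 bases before to 50 bases after each start, an E2F-type motif, TTTCCCGC or TTTGGCGC on either strand, was present in 27 of 121 promoters of replication genes (22.3%) and in 374 of 14193 promoters of genes tested (2.64%). The share was 36% of 25 promoters in the licensing and helicase list. These shares follow from which genes the lists hold, counted whatever their fold change, so they do not depend on the Stat3KO values. Promoters of 99 of the 124 genes were matched, some genes having more than 1. The windows below are from replication genes with low edgeR p-values, written 5′ to 3′ on the gene's strand with the motif in capitals, and a match describes letters and not a bound site.
Cdc6 (chr11:98907968-98908065, plus strand): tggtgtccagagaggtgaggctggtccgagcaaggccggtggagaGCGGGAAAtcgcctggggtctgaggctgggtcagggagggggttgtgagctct
Hells (chr19:38930883-38930980, plus strand): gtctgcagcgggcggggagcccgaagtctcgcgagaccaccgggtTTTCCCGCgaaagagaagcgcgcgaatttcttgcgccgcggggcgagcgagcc
Mcm5 (chr8:75109315-75109412, plus strand): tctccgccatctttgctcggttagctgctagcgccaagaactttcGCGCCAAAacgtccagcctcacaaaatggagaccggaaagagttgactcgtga
Mcm6 (chr1:128359706-128359860, minus strand): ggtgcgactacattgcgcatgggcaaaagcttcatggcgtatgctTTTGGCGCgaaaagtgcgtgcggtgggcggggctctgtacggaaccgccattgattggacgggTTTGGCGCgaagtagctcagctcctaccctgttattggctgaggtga

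Origin licensing and helicase genes had the lowest median of the 6 replication lists. Of 26 genes 24 were below 0, with a median of -0.87. In the lower direction 16 did not overlap (61.5%, against 6.1% of all genes). An unadjusted edgeR p below 0.05 was met in that direction by 19 (73.1%, against 3.65% of all genes). DESeq2 called 11 lower and voom 15, where 0.447% and 0.516% of all genes were called lower. Mcm3, a subunit of the MCM2-7 ring that unwinds DNA (chromosome 1, 20802968 to 20820312, minus strand, mm10), had 37.5, 28.7 and 46.1 CPM in Stat3KO, against 104, 141 and 65.2 CPM in Control. Its log2 fold change was -1.47 ± 0.27 (edgeR adjusted p = 0.211, DESeq2 adjusted p = 0.000214). Mcm4 (chromosome 16, 15623897 to 15637400, minus strand, mm10) had 39.8, 34.8 and 43.4 CPM in Stat3KO, against 73.3, 110.3 and 69.0 CPM in Control (-1.10 ± 0.19). In both genes Control replicate 3 was the Control library nearest to Stat3KO, and it still lay above every Stat3KO library. Of the other ring subunits, Mcm2 stood at -1.23 ± 0.25, Mcm5 at -1.23 ± 0.24, Mcm6 at -1.01 ± 0.21 and Mcm7 at -0.62 ± 0.22. Mcm7 was the subunit whose groups overlapped, with 50.04 to 56.2 CPM in Stat3KO and 54.8 to 99.0 CPM in Control.

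The loaders and activators of the helicase followed. Orc1, the largest subunit of the origin recognition complex, had 2.48, 1.63 and 3.16 CPM in Stat3KO and 7.83, 10.2 and 5.14 CPM in Control (-1.68 ± 0.36). Cdc6, which joins it to load the ring, had 3.38, 2.64 and 4.80 CPM in Stat3KO and 10.96, 15.2 and 8.31 CPM in Control (-1.67 ± 0.31, edgeR adjusted p = 0.211). Neither gene's groups overlapped, and DESeq2 and voom called both lower. Cdt1 was at -1.03 ± 0.29, its inhibitor Gmnn (geminin) at -0.75 ± 0.20, Cdc45 at -1.18 ± 0.22, Gins1 at -1.22 ± 0.31, Gins2 at -1.20 ± 0.25 and Mcm10 at -1.27 ± 0.29, each without overlap. Exceptions in the same list were Dbf4, the activating subunit of the CDC7 kinase, at 0.09 ± 0.16, and the origin subunit Orc3 at 0.16 ± 0.15.

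**Figure D1:**
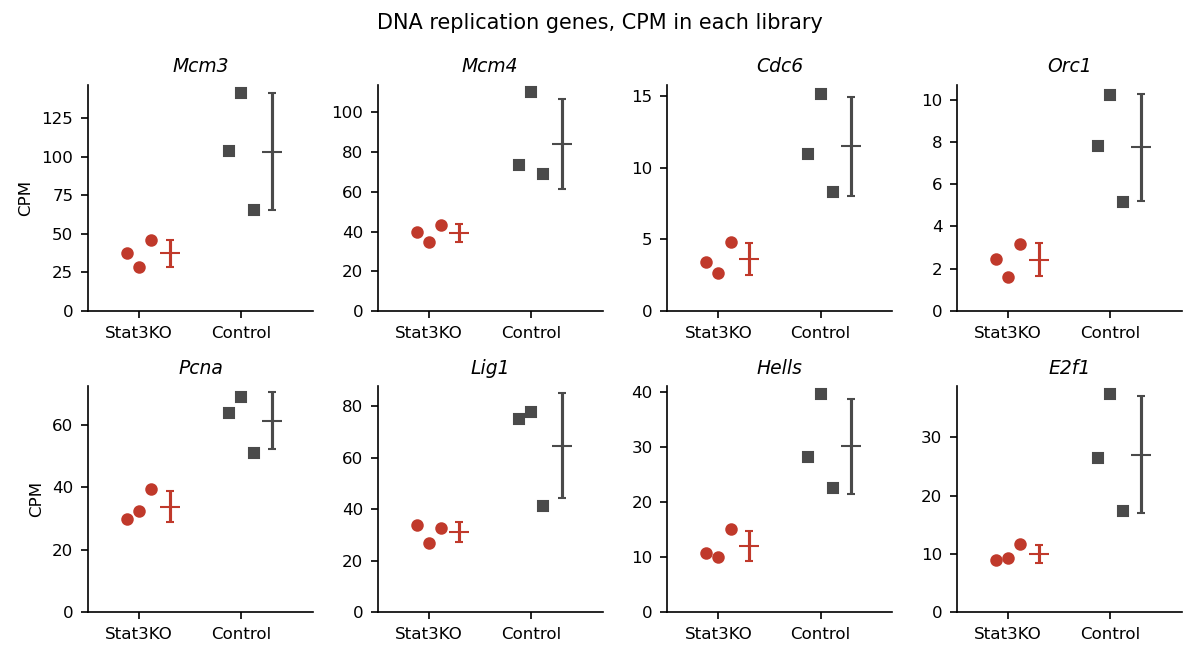
Level of 8 DNA replication genes in CPM (vertical axes, from 0), each point 1 library, with the mean and SD of 3 libraries beside the points, Stat3KO left and Control right. In every panel all Stat3KO points lie under all Control points, and the Control points are spread more widely.

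Genes of DNA synthesis itself were lower by a smaller amount. Of 30 polymerase, clamp and ligase genes 29 were below 0, with a median of -0.59. In the lower direction 17 did not overlap (56.7%, against 6.1% of all genes). Pcna, the sliding clamp (chromosome 2, 132249162 to 132253314, minus strand, mm10), had 29.8, 32.3 and 39.4 CPM in Stat3KO and 63.8, 68.7 and 51.1 CPM in Control (-0.85 ± 0.15, edgeR adjusted p = 0.211). Lig1, the ligase that joins Okazaki fragments, had 33.9, 26.8 and 32.8 CPM in Stat3KO and 74.9, 77.6 and 41.3 CPM in Control (-1.05 ± 0.21). It was the only gene edgeR called once Control replicate 3 was left out (-1.29, edgeR adjusted p = 0.0179). Fen1, the flap nuclease, stood at -0.90 ± 0.19, the single-strand binding subunits Rpa1 at -0.59 ± 0.14 and Rpa2 at -1.003 ± 0.29, and Timeless, of the fork protection complex, at -1.004 ± 0.26. The catalytic subunits of the polymerases were less clear, since the groups overlapped for Pole (-0.92 ± 0.34) and Pola1 (-0.27 ± 0.16).

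Among 18 nucleotide supply genes the median was -0.34 and 5 did not overlap in the lower direction (27.8%, against 6.1% of all genes). Rrm2, the S phase subunit of ribonucleotide reductase, had 14.7, 15.6 and 20.2 CPM in Stat3KO and 36.8, 40.9 and 26.3 CPM in Control (-1.04 ± 0.23, edgeR adjusted p = 0.255, DESeq2 adjusted p = 0.00599). All Stat3KO libraries lay below all Control libraries in this gene, and Tyms, the thymidylate synthase, was at -0.71 ± 0.19, also without overlap. The purine synthesis gene Paics, with 203 to 259 CPM in Stat3KO and 161 to 252 CPM in Control, was at 0.08 ± 0.24, so the list was not uniform.

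Chromatin copying genes were all below 0, with a median of -0.71 over 12 genes. Without overlap 10 were lower (83.3%, against 6.1% of all genes). Hells, a remodeller that works with DNA methylation, had 10.8, 9.97 and 15.1 CPM in Stat3KO and 28.1, 39.5 and 22.6 CPM in Control (-1.33 ± 0.23, edgeR adjusted p = 0.211). Uhrf1, which brings the maintenance methyltransferase to new DNA, was at -1.26 ± 0.26, the histone chaperone gene Chaf1b at -1.34 ± 0.33, and Slbp, which binds histone mRNA, at -0.81 ± 0.16. In the S phase repair list 19 of 20 genes were below 0, with a median of -0.75. Without overlap 11 were lower (55.0%, against 6.1% of all genes). Exo1, a resection nuclease, had 3.79, 3.47 and 4.36 CPM in Stat3KO and 10.1, 15.4 and 9.60 CPM in Control (-1.59 ± 0.25, edgeR adjusted p = 0.179). Ung, the uracil glycosylase, was at -1.39 ± 0.29 and the checkpoint kinase gene Chek1 at -1.25 ± 0.26, both without overlap.

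The regulators above these genes moved less evenly. Of 18 E2F factors and S phase cyclins 13 were below 0, with a median of -0.31. Without overlap 6 were lower (33.3%, against 6.1% of all genes) and 1 was higher (5.56%, against 6.96%). E2f1, an activator of the replication genes and itself an E2F target, had 8.92, 9.27 and 11.8 CPM in Stat3KO and 26.4, 37.3 and 17.4 CPM in Control (-1.44 ± 0.28, edgeR adjusted p = 0.228). Ccne1, which encodes cyclin E1, was at -0.95 ± 0.26. The gene higher without overlap was Rbl2, encoding the pocket protein p130 that restrains E2F, with 47.1, 43.8 and 40.1 CPM in Stat3KO and 34.0, 35.8 and 34.9 CPM in Control (0.32 ± 0.11, edgeR adjusted p = 0.515). In the list of G1 cyclins and CDK inhibitors 12 genes were tested with a median of -0.03. There Ccnd1, encoding cyclin D1, stood at -0.32 ± 0.29 with overlapping groups, and Cdkn1a, encoding p21, at -0.23 ± 0.47.

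Genes of G2 and mitosis stood on the other side of 0. Of 45 tested, 39 were above 0 and 6 below, with a median of 0.24, and 3 lay higher in Stat3KO without overlap (6.67%, against 6.96% of all genes), none lower. No tool called any of them. Cenpe, the kinetochore motor, had 49.8, 52.6 and 31.0 CPM in Stat3KO and 26.0, 27.9 and 29.2 CPM in Control (0.68 ± 0.24, edgeR adjusted p = 0.537). Cenpa, the centromeric histone, was at 0.58 ± 0.29 and D2Ertd750e, a gene of the same list, at 0.64 ± 0.23. Stat3KO replicate 3 was the lowest of its group in all 3 of these genes, close to Control. Summed CPM of the 45 genes was 1940, 2283 and 1473 in Stat3KO and 1346, 1699 and 1611 in Control, so the groups overlapped. Left out singly, Stat3KO replicate 2 gave the lowest median (0.09) and Stat3KO replicate 3 the highest (0.41). In 44 promoters of these genes the E2F-type motif was found in none, while CCAAT was found in 79.5% and TTTGAA, the CHR core, in 65.9%. Over all promoters these shares were 2.64%, 37.1% and 12.1%. Promoters of all replication genes held CCAAT in 49.6% and TTTGAA in 14.9%. Within these the shares were 60% and 24% for licensing and helicase genes, and 40% and 6.67% for polymerase, clamp and ligase genes.

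The lower median of the replication genes held when libraries were left out one at a time, ranging over the 6 choices between -0.73 without Control replicate 3 and -0.47 without Control replicate 2. It was -0.74 with replicate 3 of both groups left out, which removes the most Krt4-rich and Krt13-rich libraries, and -0.46 with Stat3KO replicate 3 and Control replicate 2 left out, which removes those richest in gastric and adipocyte transcripts. In bulk tissue, fewer cells in S phase and less RNA per cell cannot be told apart.

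**Figure D2:**
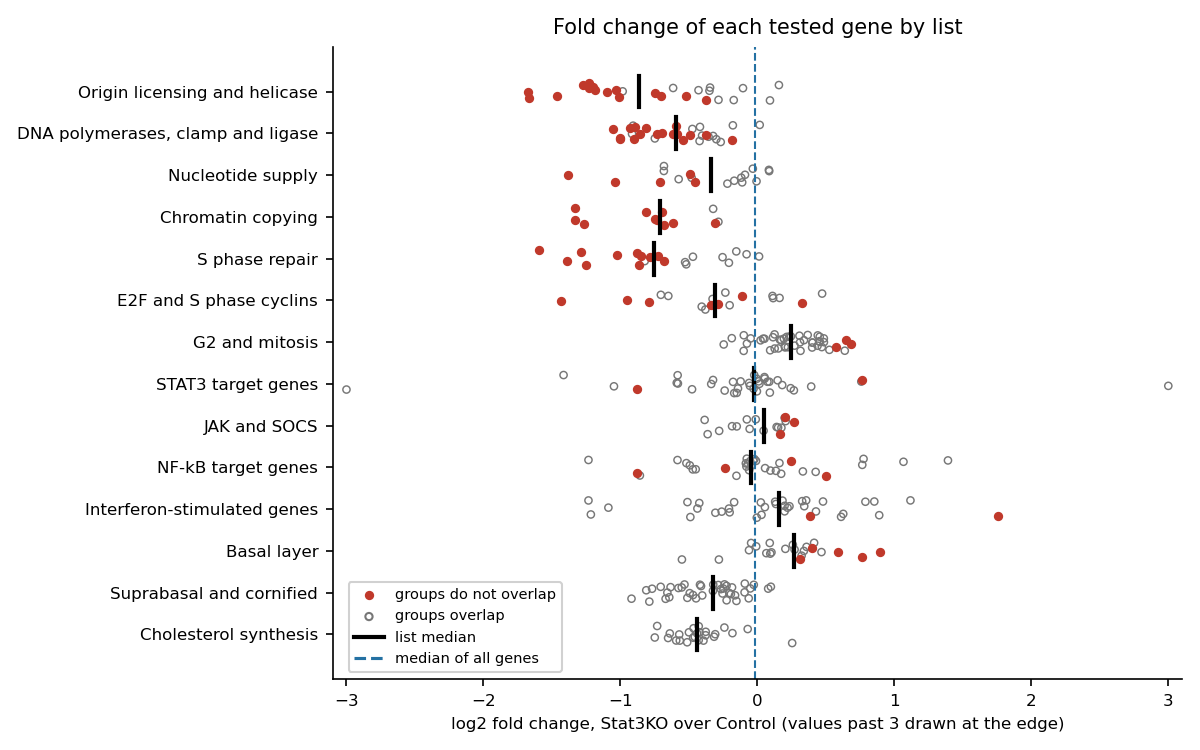
Log2 fold change of Stat3KO over Control (horizontal axis) for every tested gene in 14 lists (rows), filled where the groups do not overlap, with a bar at each list's median and a dashed line at the median of all genes (-0.02). The 6 replication lists in the upper rows lie left of the line with medians from -0.87 to -0.31, while G2 and mitosis genes have a median of 0.24.

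The same difference was looked at where Cre was present on both sides, in Ikkβca+Stat3KO against Ikkβca, which share no library with the comparison above. There too edgeR called 0 of 14134 genes (0%). Gastric and glandular markers summed to 5051, 8.12 and 1.38 CPM in Ikkβca, and to 31.7, 2.03 and 2.62 CPM in Ikkβca+Stat3KO. Krt4 and Krt13 took 5.06, 13.8 and 12.8% of counts in Ikkβca and 11.6, 4.05 and 13.4% in Ikkβca+Stat3KO. Values with single libraries left out are not given for this comparison. In it replication genes had a median of -0.25, with 95 of 124 below 0 and 54 lower without overlap, against 7.54% of all genes. Mcm2, Mcm3, Mcm4, Mcm5 and Mcm6 stood at -1.39, -1.46, -1.16, -1.31 and -1.09, each without overlap, Orc1 at -2.21 and E2f1 at -1.03. Tyms, whose Stat3KO libraries all lay below Control, was at 0.02 and overlapped between these groups. Mean log2 CPM over the 124 genes was 4.27, 4.14 and 4.32 in Stat3KO and 4.90, 5.08 and 4.51 in Control, and it was 4.12, 4.08 and 4.01 in Ikkβca+Stat3KO and 4.53, 4.30 and 4.50 in Ikkβca. Every Stat3KO and Ikkβca+Stat3KO library lay below every Control library, while the Ikkβca libraries overlapped both Stat3KO and Control. Mitosis genes had a median of 0.86 in Ikkβca+Stat3KO against Ikkβca, with 36 of 45 higher without overlap, against 7.12% of all genes. The interaction of both genotype changes was called for 0 of 14134 genes (0%) by edgeR, with 658 at an unadjusted p below 0.05, 6 called by DESeq2 and 0 by voom. No replication or mitosis gene had an interaction adjusted p below 1.

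**Figure D3:**
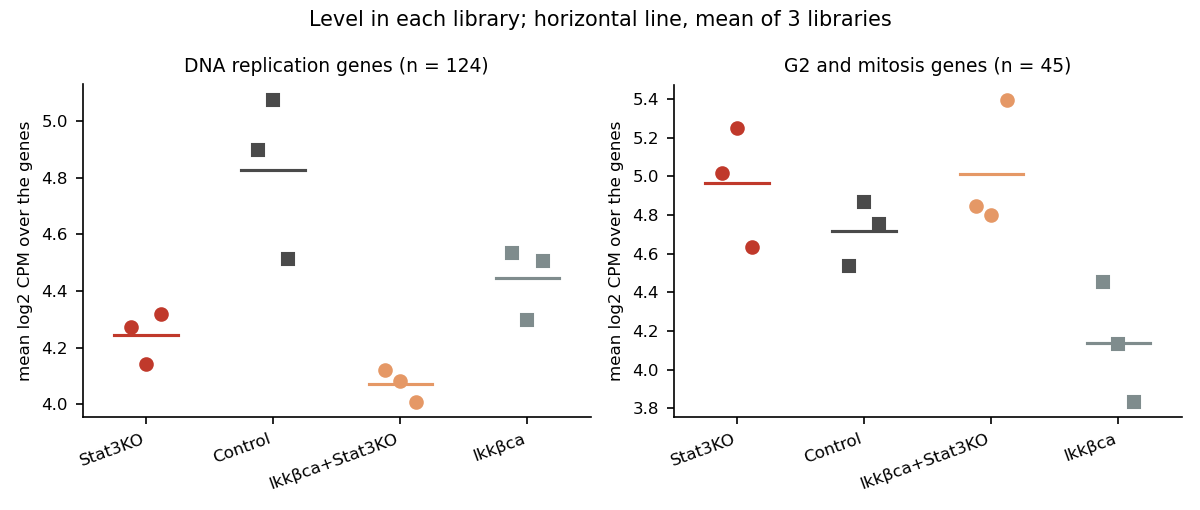
Mean log2 CPM in each library over 124 DNA replication genes (left) and 45 G2 and mitosis genes (right), 3 points a group, with a line at the group mean. Replication genes lie at 4.14 to 4.32 in Stat3KO and 4.51 to 5.08 in Control, and mitosis genes overlap between Stat3KO (4.63 to 5.25) and Control (4.54 to 4.87).

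Direction was also set side by side over all genes. Of the 516 genes lower in Stat3KO at an unadjusted edgeR p below 0.05, 428 (82.9%) were also below 0 in Ikkβca+Stat3KO against Ikkβca, where 52.3% of all genes were below 0. Of the 544 higher genes, 390 (71.7%) were also above 0, against 47.7% of all genes. Without the 73 replication genes the lower share was 82.2% of 443. Several marker lists of other tissues were also mostly below 0 in both comparisons. Among them were smooth muscle (11 and 11 of 11), endothelial (13 and 14 of 14) and fibroblast markers (17 and 19 of 19). Skeletal muscle (3 and 22 of 22), macrophage (5 and 12 of 14), gastric, neutrophil and mast cell lists were mostly below 0 only in the second. The part of tissue content in the shared direction was not tested.

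Genes that were higher in Stat3KO came from no single list. Sox6, an HMG-box transcription factor (chromosome 7, 115470872 to 116038796, minus strand, mm10), had 173, 98.3 and 128 CPM in Stat3KO and 58.7, 56.6 and 60.9 CPM in Control (1.18 ± 0.18, edgeR adjusted p = 0.179, DESeq2 adjusted p = 1.86e-05). Sox4, a related factor, had 51.9, 47.4 and 43.03 CPM in Stat3KO and 22.03, 24.8 and 24.5 CPM in Control (0.997 ± 0.17, edgeR adjusted p = 0.211). In both the lowest Stat3KO library stood well above the highest Control library. Where Ikkβca was active these did not show the same difference: Sox6 was at -0.04 and Sox4 at 0.19 in Ikkβca+Stat3KO against Ikkβca, with overlapping groups. The interaction adjusted p was 1 for each, so the comparisons were not shown to differ.

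Spred2, an inhibitor of RAS to ERK signalling, had 78.6, 73.8 and 65.3 CPM in Stat3KO and 37.8, 39.4 and 38.6 CPM in Control (0.91 ± 0.14, edgeR adjusted p = 0.179). Ttc28, a tetratricopeptide repeat gene, had 29.8, 31.4 and 30.5 CPM in Stat3KO and 17.5, 19.6 and 15.7 CPM in Control (0.80 ± 0.12, edgeR adjusted p = 0.179). These pairs of groups were tight, and both genes were called by DESeq2 and voom. Abca1, the cholesterol exporter, had 68.1, 53.6 and 38.6 CPM in Stat3KO and 31.1, 21.6 and 19.2 CPM in Control (1.16 ± 0.24, edgeR adjusted p = 0.228). It was also higher without overlap in Ikkβca+Stat3KO against Ikkβca, at 1.07. Sema3d, a secreted semaphorin, was at 1.04 ± 0.26 and at 0.99 in that second comparison, Wbscr27 at 1.04 ± 0.27 and 1.14, and Slc2a9, a urate transporter, at 0.96 ± 0.24 and 0.77, again without overlap in either. Lpin1, a phosphatidate phosphatase of lipid synthesis, had the opposite sign, 0.82 ± 0.20 in Stat3KO and -0.65 in Ikkβca+Stat3KO against Ikkβca (interaction adjusted p = 1). The RNA-binding factor gene Rbfox1, at 1.19 ± 0.38, ranged from 0.93 without Control replicate 1 to 1.71 without Control replicate 2. Klhl24 was at 1.02 ± 0.24 and Scnn1g, a subunit of the epithelial sodium channel, at 0.85 ± 0.27.

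**Figure D4:**
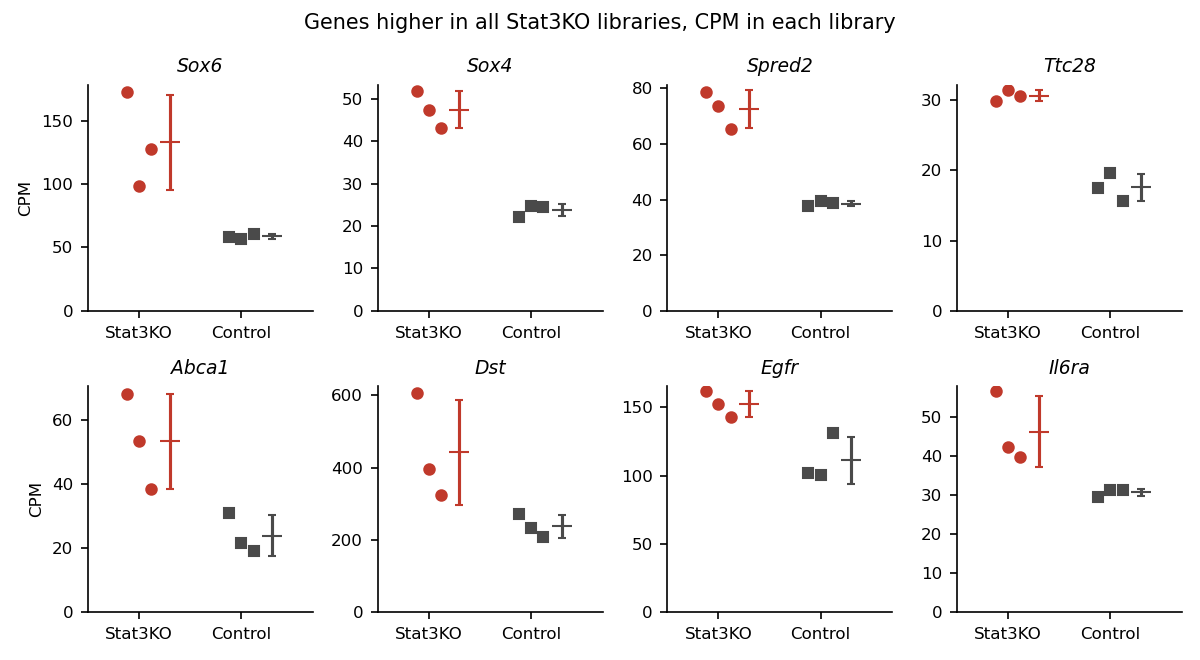
Level of 8 genes that were higher in all Stat3KO libraries, in CPM (vertical axes, from 0), each point 1 library, with the mean and SD of 3 libraries beside the points, Stat3KO left and Control right. No edgeR adjusted p was below 0.05; Sox6, Spred2 and Ttc28 are at 0.179.

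Basal layer genes leaned higher and suprabasal genes lower, with none called by edgeR. Of 22 basal genes 17 were above 0 with a median of 0.27, and 5 lay higher without overlap (22.7%, against 6.96% of all genes): Dst, Lama3, Ngfr, Trp63 and Itga6. Dst, which links keratins to hemidesmosomes, had 606, 397 and 326 CPM in Stat3KO and 272, 233 and 208 CPM in Control (0.90 ± 0.23, edgeR adjusted p = 0.359, DESeq2 adjusted p = 0.0366). The laminin chain gene Lama3 was at 0.59 ± 0.16, Ngfr, a receptor found on basal cells, at 0.77 ± 0.26, and Trp63, the master regulator of stratified epithelia, at 0.31 ± 0.15. Of the keratins of the same layer, Krt5 was at -0.05 ± 0.26 and Krt14 at -0.55 ± 0.25, with overlapping groups. The median of the list was 0.08 without Control replicate 3, the Krt4-rich Control library. Of 41 suprabasal and cornified genes 39 were below 0 with a median of -0.32, and none was separated between groups in either direction. That median was 0.29 without Control replicate 3 and -0.77 without Stat3KO replicate 3, so its sign rested on 1 library. Krt4 had 24690, 29680 and 57240 CPM in Stat3KO and 23620, 28460 and 87690 CPM in Control (-0.32 ± 0.72), and Krt13 was at -0.15 ± 0.59.

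Of 16 EGF receptor family genes, 2 were higher in Stat3KO without overlap (12.5%, against 6.96% of all genes) and 1 lower (6.25%, against 6.1%). Egfr, the receptor itself, had 162, 153 and 143 CPM in Stat3KO and 102, 101 and 131 CPM in Control (0.45 ± 0.13, edgeR adjusted p = 0.462, voom adjusted p = 0.0283). Lrig1, a brake on EGF receptor signalling, had 173, 202 and 137 CPM in Stat3KO and 135, 109 and 113 CPM in Control (0.51 ± 0.16, edgeR adjusted p = 0.513). In Lrig1 the lowest Stat3KO library was only just above the highest Control library. The lower gene was Epgn, encoding the EGF receptor ligand epigen, with 0, 0.132 and 0.109 CPM in Stat3KO and 0.447, 0.314 and 0.953 CPM in Control (-2.78 ± 0.82, edgeR adjusted p = 0.491), from at most 3 reads a library in Stat3KO and 25 in Control. The median of the list was 0.02.

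STAT3 target genes were spread around 0. Of 37 tested, 22 were below 0 and 15 above with a median of -0.03. Without overlap 1 was lower and 1 higher (2.7% each, against 6.1% and 6.96% of all genes), so neither share exceeded that of all genes. In Ikkβca+Stat3KO against Ikkβca 30 of the 37 were below 0, with a median of -0.28. There 8 were lower without overlap, where 7.54% of all genes were, and none was higher. Socs3 had 50.7, 40.4 and 50.01 CPM in Stat3KO and 64.7, 50.2 and 41.9 CPM in Control (-0.15 ± 0.30, edgeR adjusted p = 0.953). The STAT motif TTCNNNGAA was found on either strand in 6 of 36 promoters of these targets (16.7%) and in 6.85% of all promoters. It was found in 4 of 25 promoters of licensing and helicase genes (16%) and 7.44% of promoters of all replication genes. Other lists searched gave 14.3% for NF-κB targets, 6.67% for polymerase, clamp and ligase genes and 4.55% for G2 and mitosis genes. The Socs3 promoter is shown as an example of a target whose level overlapped between groups, with the motif in capitals.
Socs3 (chr11:117969467-117969565, minus strand): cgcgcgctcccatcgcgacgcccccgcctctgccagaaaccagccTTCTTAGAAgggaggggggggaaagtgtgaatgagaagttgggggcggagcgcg

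The target lower without overlap in Stat3KO against Control was Bcl3, an IκB family co-regulator. Bcl3 had 8.52, 16.7 and 27.2 CPM in Stat3KO and 30.0, 30.7 and 35.8 CPM in Control (-0.88 ± 0.35, edgeR adjusted p = 0.595). It was lower without overlap in Ikkβca+Stat3KO against Ikkβca as well, at -0.94. The target higher without overlap in Stat3KO against Control was S100a8, a calprotectin subunit. S100a8 had 1.89, 2.24 and 1.69 CPM in Stat3KO and 1.40, 0.941 and 1.11 CPM in Control (0.77 ± 0.60). In Ikkβca+Stat3KO against Ikkβca it was lower without overlap, at -2.56 ± 0.50. Of the receptors that feed STAT3, Il6ra, the IL-6 receptor, had 56.7, 42.4 and 39.8 CPM in Stat3KO and 29.6, 31.4 and 31.2 CPM in Control (0.59 ± 0.20, edgeR adjusted p = 0.515). Il6st, the shared signalling chain gp130, was at 0.18 ± 0.16 with overlapping groups. Il10ra, the IL-10 receptor chain carried mainly by leukocytes, was at -1.12 ± 0.32 with 0.818 to 1.76 CPM in Stat3KO and 2.72 to 3.47 CPM in Control. The JAK and SOCS list of 17 genes had a median of 0.05, and Jak2, at 0.27 ± 0.21, was 1 of 3 that were higher without overlap (17.6%, against 6.96% of all genes). NF-κB targets had a median of -0.05 over 33 genes, with 2 higher and 2 lower without overlap (6.06% each, against 6.96% and 6.1% of all genes), and Nfkbia, encoding IκBα, stood at -0.24 ± 0.16. Interferon-stimulated genes had a median of 0.16 over 36 genes, which was -0.0238 without Stat3KO replicate 1 and -0.18 under voom. Of these, 2 were higher without overlap (5.56%, against 6.96% of all genes), Mx1 (1.76 ± 0.83, at most 1.09 CPM) among them.

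Lipid and clock genes gave single differences. Scd1, the fatty acid desaturase, had 7.08, 8.61 and 10.04 CPM in Stat3KO and 8.11, 46.3 and 47.02 CPM in Control (-1.98 ± 0.49, edgeR adjusted p = 0.352, DESeq2 adjusted p = 0.00914). Control replicate 1 lay within the Stat3KO range, and leaving it out made Scd1 the 1 gene edgeR called (-2.44, edgeR adjusted p = 0.0012). Cholesterol synthesis genes had a median of -0.44 with 24 of 25 below 0, but none was separated between groups and the median was 0.13 without Control replicate 3. Their summed CPM was highest in replicate 3 of each group, as was the Krt4 and Krt13 share, at 1757, 1822 and 2909 in Stat3KO and 2007, 2024 and 4658 in Control. Arntl, encoding the clock activator BMAL1, had 29.7, 62.2 and 31.3 CPM in Stat3KO and 19.4, 15.2 and 20.04 CPM in Control (1.17 ± 0.43, edgeR adjusted p = 0.566). Its partner gene Npas2 was higher at 0.72 ± 0.27 and the repressor gene Cry1 lower at -0.86 ± 0.42, all without overlap. Of 19 clock genes tested 9 were above 0 and 10 below, with a median of -0.06. Without overlap 2 were higher (10.5%, against 6.96% of all genes) and 1 was lower (5.26%, against 6.1%). Time of day of the harvests was not used here.

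Among the 12 genes lowest in Stat3KO by the naming rule, 4 were replication genes (Orc1, Cdc6, Exo1 and Mcm3), and several others rested on 1 Control library. Plekhb1 had 1.49, 0.703 and 0.709 CPM in Stat3KO and 1.79, 2.14 and 16.7 CPM in Control, and its log2 fold change of -2.82 ± 0.84 became -1.01 without Control replicate 3. Fabp4, a fatty acid carrier of adipocytes and endothelium, had 7.62, 4.44 and 8.02 CPM in Stat3KO and 8.67, 64.0 and 17.7 CPM in Control, and its -2.17 ± 0.61 became -0.98 without Control replicate 2. Others were less tied to a library. Prss12, a secreted serine protease, had 0.361, 0.703 and 0.545 CPM in Stat3KO and 1.51, 1.99 and 2.71 CPM in Control (-1.94 ± 0.40, edgeR adjusted p = 0.228), and it was at -1.50 in Ikkβca+Stat3KO against Ikkβca. Thrsp, a lipogenic regulator, was at -2.75 ± 0.69 and Slfn9 at -2.02 ± 0.58 (-1.34 without Control replicate 2). The channel gene Trpv2 was at -1.55 ± 0.37, Cd200 at -1.54 ± 0.49 and the leukocyte gene Cytip at -1.53 ± 0.43. Cytip had only 10, 7 and 5 reads in Stat3KO and 16, 28 and 18 in Control. The average log2 CPM of the naming rule was taken over all 12 libraries, and Cytip had 5.93 to 8.18 CPM in Ikkβca.

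Markers of other tissues varied between libraries, and their part in the differences above was not tested. Gastric and glandular markers summed to 47.8, 2.72 and 568 CPM in Stat3KO and 3.24, 4.76 and 4.92 CPM in Control. Tff2, a gastric trefoil factor, reached 109.7 CPM and Lipf, gastric lipase, 316 CPM in Stat3KO replicate 3. Skeletal muscle markers summed to 597, 1971 and 3183 CPM in Stat3KO and 1107, 1359 and 990 CPM in Control, a spread within Stat3KO larger than the difference between groups. Adipocyte markers summed to 22.4, 49.2 and 54.0 CPM in Stat3KO and 25.3, 243 and 69.1 CPM in Control. Control replicate 2 stood apart in that list, and 3 Stat3KO libraries held at most 0.164 CPM of Adipoq. Nerve and glia markers summed to 213, 228 and 237 CPM in Stat3KO and 205, 273 and 464 CPM in Control, where replicate 3 was the highest.

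Smooth muscle markers were the tissue list that differed in most members. All 11 were below 0 with a median of -0.87, and 9 lay lower without overlap (81.8%, against 6.1% of all genes), although none was called by edgeR, DESeq2 or voom. Their sum was 1362, 2064 and 1204 CPM in Stat3KO and 2500, 2641 and 3186 CPM in Control. Acta2, smooth muscle actin, had 263, 403 and 217 CPM in Stat3KO and 461, 505 and 651 CPM in Control (-0.87 ± 0.44, edgeR adjusted p = 0.704). Endothelial markers had a median of -0.80 over 14 genes, which was -0.46 without Control replicate 2. Of these, 5 were lower without overlap (35.7%, against 6.1% of all genes), among them Kdr, the VEGF receptor, at -1.58 ± 0.59. T and NK cell markers, of which 8 of 17 passed the count filter, had a median of -1.43, which was -0.23 without Control replicate 2, and their sum was 15.1, 18.5 and 8.29 CPM in Stat3KO and 11.6, 38 and 17.3 CPM in Control. The marker lists of fibroblasts and of macrophages overlapped between groups in every gene.

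**Figure D5:**
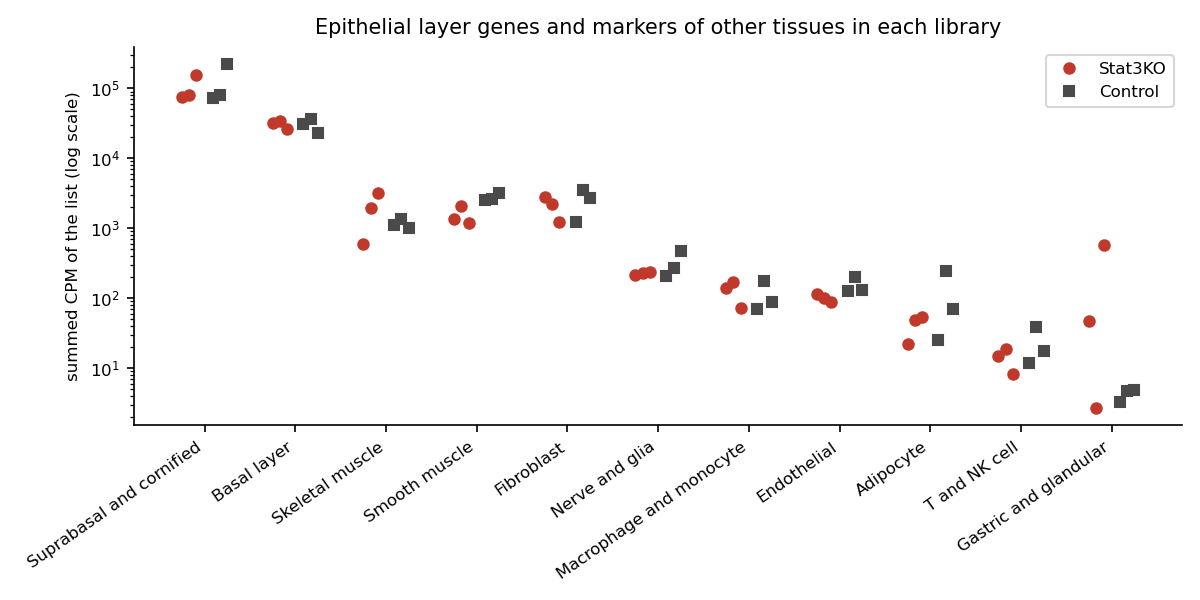
Summed CPM (vertical log axis) of 11 lists of epithelial layer genes and of markers of other tissues in each library, Stat3KO circles left and Control squares right of each tick, replicates in order. Smooth muscle is separated (1204 to 2064 in Stat3KO, 2500 to 3186 in Control), while gastric markers reach 568 in Stat3KO replicate 3 and adipocyte markers 243 in Control replicate 2.

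Fold changes also varied with transcript length. In 10 equal bins of the 13995 genes with a GENCODE transcript length, the median log2 fold change was -0.14 in the shortest bin (median 1027 bases) and 0.12 in the longest (median 8171.5 bases). In Ikkβca+Stat3KO against Ikkβca the same bins had medians of 0.14 and -0.08. Genes higher in Stat3KO at an unadjusted edgeR p below 0.05 had a median length of 5238.5 bases, those lower 2866.5 bases, all genes 3330 bases and replication genes 3389 bases. With a length and GC term for each library, Dst moved to 0.67 and Sox6 to 1.08, Mcm3 was at -1.43, and the median of the replication genes was -0.56. Under the same correction the median was 0.26 for basal layer genes and 0.29 for G2 and mitosis genes.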

How the data were processed

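Raw counts per gene were deposited for each of 12 libraries of polyadenylated RNA from oesophageal epithelium that had been mechanically separated from stroma, per the labels' protocols. Per the submitters' processing notes the tools included cutadapt 1.13, STAR, HTSeq 0.6.1p1 and DESeq2, and the build was mm10. The strand setting is not given in the sources used here, so overlapping, antisense and near-identical genes are uncertain.

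From the deposited counts, edgeR 4.0.16 (R 4.3.3) fitted all 12 libraries in 4 groups with TMM factors, its default count filter (14134 genes kept) and robust quasi-likelihood dispersions, with Benjamini-Hochberg adjustment and a threshold of 0.05. DESeq2 1.42.0 and limma 3.58.1 (voom with sample quality weights) were alternatives, as were other scalings and filters, and leaving out each library. CPM used TMM-scaled library sizes. Positions and transcript lengths came from GENCODE M21 on mm10, and promoters from RefSeq. Each fitting script was tested on simulated data.

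Genes named were the 12 highest and 12 lowest with unadjusted edgeR p below 0.01, average log2 CPM of at least 1 and no overlap. That average ran over all 12 libraries. Also named were up to 6 per list with the smallest p, any licensing or synthesis gene, and Stat3, Socs3, Ikbkb and 4 keratin genes. Predicted models, immunoglobulin, T cell receptor, haemoglobin and sex-linked genes were left out of the 24. Ttc28, Itga6 and Paics were chosen after their values were seen. All members, lists and comparisons were chosen with earlier results of these data known. The length and GC correction and the settings that leave out 2 libraries were chosen after seeing the data. Some genes of these lists are not reported here.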

Additional observations from a re-analysis of the deposited data

How the results depend on the processing

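Counts of calls depended on the tool. DESeq2 gave 43 higher and 63 lower genes, limma voom 39 and 73, and DESeq2 called 6 interactions, against 0 of each by edgeR on all libraries. Left out singly, the libraries gave 0 to 1 lower edgeR calls: Scd1 without Control replicate 1 and Lig1 without Control replicate 3. With the replicate number as a block edgeR called 0 genes and Stat3 stood at -0.22. To look for pairing, each gene's group mean of log2 CPM was subtracted, and the deviations left were correlated between Stat3KO and Control libraries. These deviations correlated at 0.284, 0.073 and 0.088 for same-numbered libraries. For differently numbered ones the values were -0.273, -0.015, 0.04, -0.098, -0.288 and 0.194. The main fit did not pair libraries by number, and these values do not decide whether they are paired. The Stat3 difference ranged from -0.27 to -0.18 over single libraries left out. Genes near 0 changed sign. With 1 or 2 libraries left out, Krt4 ranged from -1.03 to 0.51, Krt13 from -0.67 to 0.49, Krt5 from -0.21 to 0.25, Ikbkb from -0.0895 to 0.16, Paics from -0.099 to 0.28, Dbf4 from -0.0454 to 0.31, Cdkn1a from -0.73 to 0.25 and Socs3 from -0.33 to 0.0315. Under voom Krt4 was 0.15, Krt13 0.20, Ikbkb 0.0528 and Paics -0.0061. Ikbkb was 0.0376 with library totals, 0.0016 with the replicate block and 0.0007 with a term for replicate 1, and Krt5 was 0.0464 with the length and GC correction. The cause was not tested.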

Other observations

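Genes of pathways not described above gave isolated differences. In the Notch list, 18 genes had a median of 0.06, with 3 higher and 3 lower without overlap, against 6.96% and 6.1% of all genes. The receptor gene Notch1 was at 0.30 ± 0.17, while the ligand gene Dll4 was at -0.998 ± 0.32 and Mfng, a glycosyltransferase that modifies Notch, at -1.21 ± 0.39. None passed the edgeR test. Among the other STAT genes, Stat5a was at 0.25 ± 0.15 and Stat5b at 0.08 ± 0.08, both higher without overlap.

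Nuclear genes of the respiratory chain, most of them short, had a median of -0.15 over 43 genes with 35 below 0. With the length and GC correction that median was -0.054. In Ikkβca+Stat3KO against Ikkβca the same 43 had a median of 0.19 with 37 above 0. Their median longest transcript was 1410 bases, against 3330 bases over all genes.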
